A study of Mus musculus with 19 samples.

Results

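Of 36 nuclear-encoded subunits of the mitochondrial respiratory chain that were listed by symbol, 35 were measured in fat and pancreatic lymph nodes (PLNs) of NOD mice, among 18193 genes named on the array. They were 18 subunits of complex I, 4 of complex II, 6 of complex III, cytochrome c (Cycs) and 6 of complex IV. Cox7b, a subunit of complex IV, had no probe set named by the platform table used here. Ndufa4 is counted with complex I after its name, although it is now assigned to complex IV. Each gene was followed through the probe set with the highest mean log2 signal over the arrays of a tissue, which was the same probe set in both tissues for 28 of the 35 genes.

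Complex I takes electrons from NADH and complex II takes them from succinate. Complex III passes them to cytochrome c, and complex IV, cytochrome c oxidase, hands them to oxygen while protons are moved across the inner mitochondrial membrane for ATP synthase. A few subunits are made inside the mitochondrion, and the subunits described here are made from nuclear genes and imported. White fat cells use the chain for lipid storage and breakdown as well as for ATP, brown fat cells burn through it to make heat, and activated lymphocytes increase their demand on it.

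The 19 arrays came from NOD mice, a strain with spontaneous autoimmune diabetes that the methods give as female NOD/LtJx. Fat was profiled in normoglycemic mice (NOR, n = 2), mice with new onset diabetes (DIA, n = 2), and mice with new onset diabetes given alpha1 antitrypsin (AAT, n = 2) or the Power Mix (PM, n = 3), a mixture of IL2.Ig, a mutant IL15.Ig and rapamycin. PLNs, which drain the pancreas, were profiled in NOR (n = 4), DIA (n = 2) and AAT (n = 4). For its insulin signaling studies the study took epididymal white fat for RNA from fasted mice injected with insulin or saline. The methods do not say whether the arrays used this fat. All groups share the NOD background, no PM arrays of PLNs were analysed here, and the labels give neither the age at sampling nor whether the arrays of a group are separate mice, so p-values measure only the spread between these samples.

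Values are linear signals (intensities) as deposited, scaled per array to the same trimmed mean. A log2 change is given relative to the median change of all 45037 probe sets, because that median is not 0: in fat it was −0.11 for DIA against NOR, −0.05 for AAT against DIA, 0.15 for PM against DIA and 0.17 for PM against AAT. In PLNs it was −0.11 for DIA against NOR, −0.58 for AAT against DIA and −0.72 for AAT against NOR. P-values are those of limma for the change as measured, and adjusted p-values cover all probe sets. "The thresholds" below are those named in the study's methods, over 2-fold either way with an unadjusted p up to 0.05, taken here on the change as measured. The study compared diabetic with normal mice by a rank product test on RMA values. Counts here rest on another test and scale. The main values are also given after quantile normalization, which gives the arrays of a tissue 1 common distribution.

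Several arrays stood apart. The 2 DIA fat arrays had beta-actin 3' to 5' signal ratios of 15.2 and 15.5, a sign of shortened RNA, against 3.35 to 9.08 in the 7 other fat arrays. Their Gapdh ratios stood less far apart, at 2.46 and 4.63 against 0.79 to 2.31. The array of PLNs labelled AAT 3 had a signal of 167742 for Cela3b, an elastase of pancreatic acinar cells, and DIA 1 had 7592, against 207 to 1376 in the 8 other PLN arrays. Defining markers fitted the labelled tissues: Adipoq, the adipocyte hormone adiponectin, lay between 15690 and 60264 in fat, and Cd3e, a chain of the T cell receptor complex, lay between 3622 and 12437 in PLNs. Ucp1, the uncoupling protein of brown fat, lay between 5 and 124 in fat.

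Promoter sequences are shown for some of the members described below, because respiratory chain genes are known targets of the factors NRF1, GABPA and YY1. They include some that hold a core of one of these factors and 3 of the 6 members with an adjusted p under 0.05 in PLNs. They are RefSeq promoters of build GRCm38.p6, from 250 bases before to 50 bases after the annotated start, available here for 26 of the 36 listed genes. Sdha, the flavoprotein subunit of complex II, held 3 NRF1 cores in its 250 upstream bases at chr13:74350241-74350490 on the minus strand. Capitals mark the NRF1 cores GCGCANGCGC and, in the first line, also 1 reverse CCAAT box.

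Sdha upstream: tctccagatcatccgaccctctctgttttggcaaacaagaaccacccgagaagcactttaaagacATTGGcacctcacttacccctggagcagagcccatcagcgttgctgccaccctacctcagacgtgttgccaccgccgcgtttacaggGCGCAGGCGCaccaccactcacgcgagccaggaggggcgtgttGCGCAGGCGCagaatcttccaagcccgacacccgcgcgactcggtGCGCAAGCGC
Ndufa5, chr6:24527697-24527726, minus strand: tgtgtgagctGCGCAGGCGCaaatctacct
Ndufa8, chr2:36049349-36049378, minus strand: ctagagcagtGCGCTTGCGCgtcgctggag

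Other members carried the ETS core CCGGAAG, which GABPA binds, or the YY1 core AANATGGC, on either strand. In the next lines capitals mark the ETS core in Cox8a and Ndufs3 and the YY1 core in Ndufs4 and Ndufa9.

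Cox8a, chr19:7217605-7217631, minus strand: ttccgaaataCTTCCGGctcgggcgtc
Ndufs3, chr2:90904732-90904758, minus strand: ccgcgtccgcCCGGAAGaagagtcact
Ndufs4, chr13:114388045-114388069, minus strand: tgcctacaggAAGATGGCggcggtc
Ndufa9, chr6:126849098-126849125, minus strand: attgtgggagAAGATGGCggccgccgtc

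Of the 6 members called in PLNs, Ndufv1, Ndufv2 and Cox5b had a promoter in the table, and Ndufb9, Uqcrb and Cox6c are named only. The lines below give the 250 upstream bases of the first 3, at chr19:4012756-4013005 on the minus strand for Ndufv1, at chr17:66101560-66101809 on the minus strand for Ndufv2 and at chr1:36691237-36691486 on the plus strand for Cox5b. Capitals in Ndufv2 mark 2 SP1 GC boxes, GGGCGG and its reverse complement.

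Ndufv1 upstream: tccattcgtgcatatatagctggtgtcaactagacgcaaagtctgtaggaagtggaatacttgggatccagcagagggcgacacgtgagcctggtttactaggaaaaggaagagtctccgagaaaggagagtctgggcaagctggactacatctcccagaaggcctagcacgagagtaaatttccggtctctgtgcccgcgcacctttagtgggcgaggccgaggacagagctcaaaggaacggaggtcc
Ndufv2 upstream: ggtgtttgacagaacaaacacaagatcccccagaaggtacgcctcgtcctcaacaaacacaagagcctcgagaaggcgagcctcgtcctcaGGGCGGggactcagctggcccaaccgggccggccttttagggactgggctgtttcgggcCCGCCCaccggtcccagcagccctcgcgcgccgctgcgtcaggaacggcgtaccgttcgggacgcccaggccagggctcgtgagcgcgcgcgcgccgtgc
Cox5b upstream: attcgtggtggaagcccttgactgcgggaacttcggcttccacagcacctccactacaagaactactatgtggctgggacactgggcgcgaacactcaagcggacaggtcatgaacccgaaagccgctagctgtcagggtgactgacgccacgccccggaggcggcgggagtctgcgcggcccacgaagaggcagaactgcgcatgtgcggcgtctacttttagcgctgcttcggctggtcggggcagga

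Over both strands, the NRF1 core was in 22.2% of the 27 promoters of members and in 4.6% of all 32851 promoters in the table. The ETS core was in 18.5% of members' promoters and 8.86% of all, and the YY1 core in 25.9% and 6.05%. The SP1 GC box GGGCGG was in 48.1% and 35.7%, the CCAAT box in 25.9% and 37.4%, and the ERR alpha site AAGGTCA in 3.7% and 4.72%. These are counts of letters in a window and not of binding. Ndufa5 enters with 2 overlapping promoters that share the window printed above, and the unmeasured Cox7b is included. None of these motifs was found in the windows of Ndufv1 and Cox5b, whose signals are described next.

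In PLNs, the question put to the members was whether their signals differed between NOR, DIA and AAT mice. AAT differed most: relative to the median probe set, 33 of 35 members were higher in AAT than in NOR, with a median log2 change of 1.55 and a range of −0.47 to 2.58. After quantile normalization 26 of 35 were higher and the median was 0.31. The size of the difference depended on the scaling of the arrays, and the median was above 0 under both. In bulk tissue, a different share of a cell type and a different amount of RNA per cell cannot be told apart.

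By the study's thresholds, 13 members were higher and 1 was lower in AAT than in NOR, where 3.36% of all probe sets were higher and 20% were lower. After quantile normalization 3 members were higher (7.17% of all probe sets) and 1 was lower (7.66%). At an adjusted p under 0.05, 6 members rose and none fell as deposited, where 1.1% of all probe sets rose and 2.64% fell. After quantile normalization 1 member rose and none fell, against 0.213% and 0.266% of all probe sets. The 4 AAT arrays lay wholly above the 4 NOR arrays for 14 members, and this held for 3.54% of all probe sets. No member lay wholly below, as 11.8% of all probe sets did. After quantile normalization 6 members lay wholly above, as 6.56% of all probe sets did, and none lay wholly below, against 4.62%.

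The members that rose in AAT vs NOR came from 3 complexes. Ndufv1, the subunit of complex I that binds NADH and FMN, had signals of 1568, 1373, 1421 and 1364 in NOR, 2118 and 2235 in DIA, and 5181, 5463, 5986 and 4272 in AAT. The 3 groups did not overlap, with NOR lowest and AAT highest. Its log2 signal went from 10.48 ± 0.09 (SD, n = 4) in NOR to 12.34 ± 0.21 (SD, n = 4) in AAT, a relative change of 2.58 (SE 0.31, limma adjusted p = 0.0078). After quantile normalization the change was 1.499 with a limma adjusted p of 0.034, and Ndufv1 was the member called on both scales. The other probe sets of Ndufv1 gave 2.57 and, for the dimmest, 0.25.

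Ndufv2, the iron-sulfur partner of Ndufv1 in the same NADH-binding part of complex I, had signals of 3816, 2691, 3793 and 4577 in NOR, 4054 and 5788 in DIA, and 13033, 8406, 13316 and 9751 in AAT. All AAT arrays exceeded all others. Its change was 2.30 (SE 0.33, limma adjusted p = 0.019) against NOR, and 0.98 after quantile normalization, with an adjusted p of 0.10. Ndufb9, an accessory subunit of the membrane arm of complex I, had signals of 5956, 4502, 7052 and 5730 in NOR, 3316 and 7683 in DIA, and 11235, 21113, 16735 and 11579 in AAT. Here too the AAT arrays lay above the rest, and the 2 DIA arrays were on either side of NOR. This gave a relative change of 2.07 (SE 0.36, limma adjusted p = 0.042), and 0.67 after quantile normalization.

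Uqcrb, a small subunit of complex III near the site of ubiquinone, had signals of 19545, 12889, 15167 and 21843 in NOR, 15554 and 18455 in DIA, and 66420, 28476, 44459 and 39316 in AAT. The DIA arrays lay within the range of NOR and the AAT arrays lay above it. Its relative change was 2.05 (SE 0.36, limma adjusted p = 0.044), and 0.42 after quantile normalization.

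Of complex IV, Cox5b and Cox6c, both nuclear accessory subunits, rose. Cox5b had signals of 10126, 8779, 8886 and 9597 in NOR, 8322 and 13717 in DIA, and 23812, 21593, 21489 and 19995 in AAT. Its 4 AAT arrays were the most alike of any member in that group, with an SD of 0.10 on the log2 scale. Cox5b changed by 1.94 (SE 0.31, limma adjusted p = 0.039), and 0.44 after quantile normalization. Cox6c had 13152, 9971, 13380 and 16128 in NOR, 11806 and 22726 in DIA, and 53784, 31278, 51443 and 32446 in AAT. The AAT arrays were again above all others, and the relative change was 2.38 (SE 0.36, limma adjusted p = 0.022), or 0.78 after quantile normalization.

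**Figure D1:**
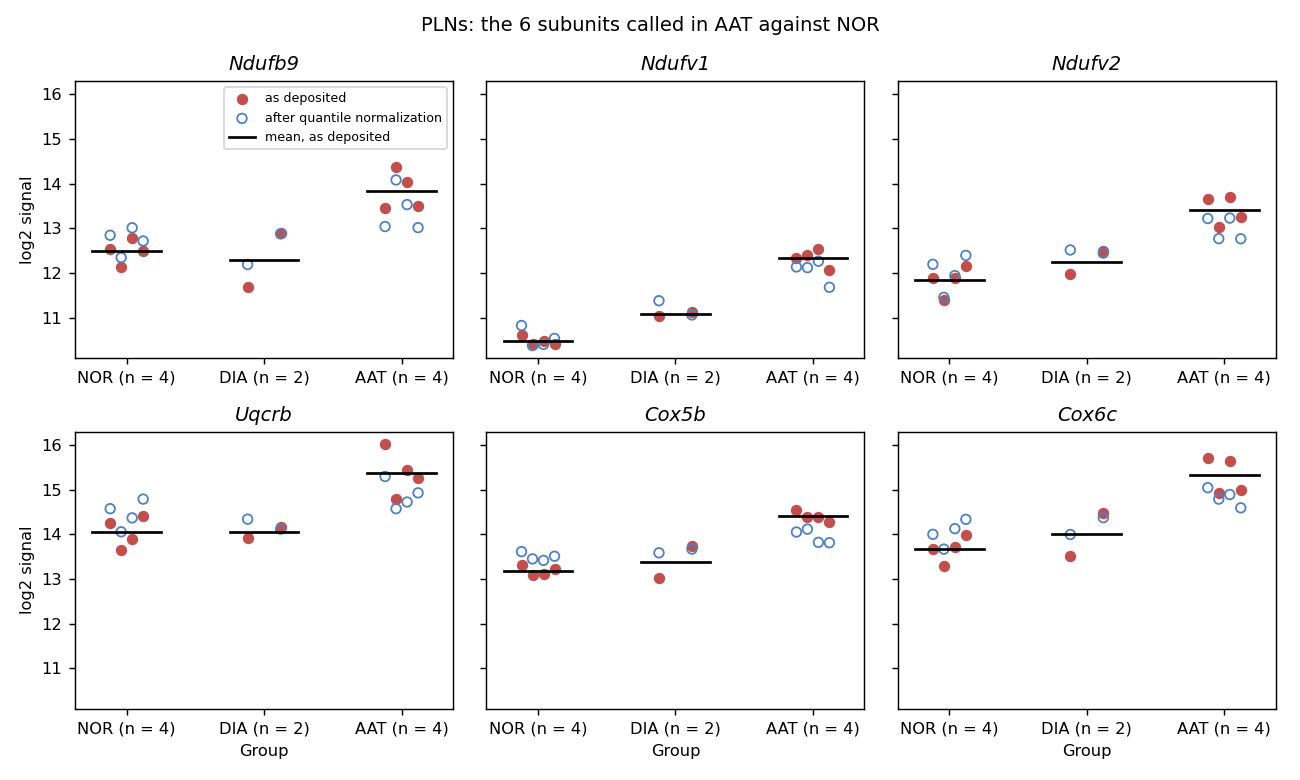
Log2 signal (vertical axis) of the 6 subunits with an adjusted p under 0.05 in AAT vs NOR, in each PLN array of NOR (n = 4), DIA (n = 2) and AAT (n = 4). Filled red points are signals as deposited, open blue points are the same arrays after quantile normalization, and black bars are group means as deposited. The filled AAT points lie above all filled NOR and DIA points in every panel, and the open points of AAT sit lower than the filled ones.

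Of the 6, Ndufv1 kept an adjusted p under 0.05 with any 1 array left out (highest 0.039), and the other 5 did not. Without any 1 of the 4 NOR arrays only Ndufv1 passed, without AAT 3 there were 2, without AAT 4 there were 3, and with limma's trend of the spread on signal left off there was none. Further probe sets of these genes that were bright were also higher, most by less, and dim ones gave values from −2.07 to 0.25. For Cox5b, the 4 bright probe sets gave 1.58 to 1.94, and the others, at percentiles 43.6 and 19.4 of mean signal, gave −2.07 and −0.28. The other probe set of Cox6c gave 1.32, and that of Uqcrb gave 1.16. The chosen probe sets of Ndufv1 and Cox5b carry the array maker's suffix for probes that can match other transcripts, so signal from near copies cannot be kept apart. Of the 35 chosen probe sets, 7 in PLNs and 5 in fat carry that suffix, and 3 and 2 carry one for transcripts that may be of several genes. A suffix for several transcripts of the same gene is carried by 16 in PLNs and 15 in fat.

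Ndufa9, a complex I subunit at the junction of its arms, was the 1 member past the thresholds downward in AAT vs NOR. Its signals were 1788, 1776, 2942 and 1567 in NOR, 1059 and 1361 in DIA, and 634, 3967, 400 and 536 in AAT. Of the AAT arrays 3 were the lowest of all and 1, AAT 2, was the highest, so the groups overlap. Its relative change was −0.47 (SE 0.54, limma adjusted p = 0.18), and −1.20 after quantile normalization.

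Other members past the thresholds upward without an adjusted p under 0.05 were Ndufa2, Ndufa5, Ndufb5, Ndufb8, Ndufs4 and Ndufs8 of complex I and Cox5a of complex IV. Ndufs4, an assembly-critical subunit whose loss causes complex I deficiency, had signals of 795, 1169, 914 and 1057 in NOR, 1702 and 1823 in DIA, and 2151, 1694, 3976 and 2009 in AAT. NOR was lowest, and AAT 2 lay just below the DIA arrays. The relative change against NOR was 1.98 (SE 0.36, limma adjusted p = 0.054) and 1.12 after quantile normalization. Ndufa5, a small accessory subunit, had 22205, 10997, 11546 and 18515 in NOR, 17132 and 24426 in DIA, and 38894, 24198, 45959 and 32773 in AAT. NOR lay below AAT, the relative change was 1.91 (SE 0.36, limma adjusted p = 0.063), and after quantile normalization it was 0.30.

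By complex, the median relative change in AAT vs NOR was 1.63 over 18 members of complex I, 1.24 over 4 of complex II, 1.37 over 6 of complex III and 1.82 over 6 of complex IV, and Cycs was at 0.94. After quantile normalization the medians were 0.30, 0.13, 0.44 and 0.56, and Cycs was at −0.28. With Ndufa4 moved to complex IV, the medians were 1.73 over 17 members of complex I and 1.69 over 7 of complex IV, or 0.31 and 0.44 after quantile normalization. Spread within a group differed between members. Sdhc, a membrane anchor of complex II, had signals of 333, 3679, 1683 and 427 in AAT and 943, 2821, 1700 and 1469 in NOR, so AAT held both the highest and the lowest array. Cox4i1, a subunit of complex IV that binds ATP, had 898, 5488, 3304 and 997 in NOR and 1625, 13417, 5976 and 1834 in AAT. Arrays 1 and 4 of each group were low and arrays 2 and 3 high, and the groups overlapped. The median SD over members was 0.43 in NOR and 0.61 in AAT on the log2 scale.

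The change of a probe set moved with its signal in these arrays. With all probe sets split into 10 equal bins by mean signal in PLNs, 28 of the 35 members lay in the brightest bin, 6 in the next and 1 in the one below. In AAT vs NOR the median change as measured was 0.38 for the brightest bin, −0.12 for the next and −1.43 for the lowest value of the 10. Against the median of their own bin, 26 of 35 members were higher in AAT than in NOR, by a median of 0.53, and 22 of 35 were higher than in DIA, by a median of 0.46. This setting was chosen after seeing the data.

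**Figure D2:**
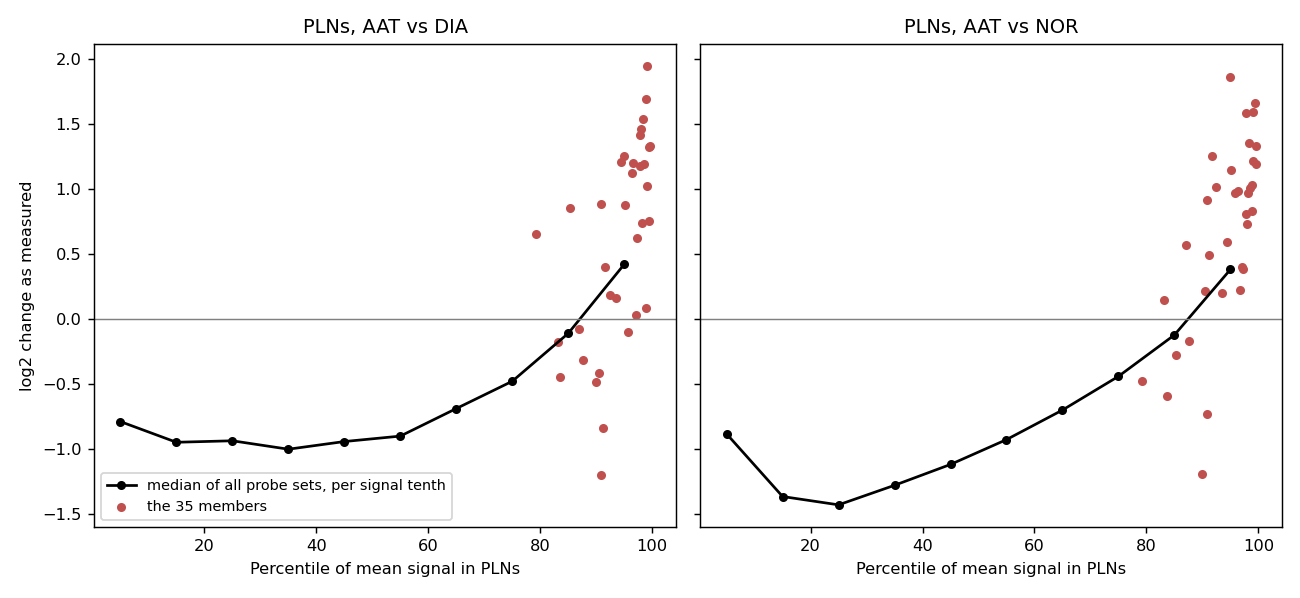
Log2 change as measured (vertical axis) against the percentile of mean signal in PLNs (horizontal axis) for AAT vs DIA and AAT vs NOR. Black points joined by a line are the median of all probe sets in each of 10 equal bins of signal, and red points are the 35 members. The line ends at 0.42 and 0.38 in the brightest bin and is at −0.79 and −0.88 in the dimmest, and most members lie at the bright end, above and below the line.

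Against DIA, AAT gave a median relative change of 1.34 over the members, with 33 of 35 higher, and 0.36 with 24 of 35 higher after quantile normalization. By the thresholds 13 members were higher and none lower, against 4.83% and 11.7% of all probe sets, and without DIA 1 there were 2. The 13 were Ndufb3, Ndufb5, Ndufb9, Ndufs7, Ndufv1 and Ndufv2 of complex I, Sdha of complex II, Uqcrc2 and Uqcrb of complex III, Cycs, and Cox5a, Cox5b and Cox6c of complex IV. After quantile normalization 3 were higher (7.57%) and 1 was lower (5.26%). An unadjusted p under 0.05 was found by limma for 13 members and for 7581 of all 45037 probe sets. No member had an adjusted p under 0.05, a threshold that 0.0999% of probe sets passed by limma. Without DIA 2, 4 members passed it. The AAT arrays lay wholly above the DIA arrays for 12 members, where this held for 5.3% of all probe sets. AAT vs DIA and AAT vs NOR share the AAT arrays.

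The smallest p-values in AAT vs DIA were those of Sdha, Cox5a and Ndufb9. Sdha had signals of 11316, 8642, 10958 and 9466 in NOR, 3441 and 8945 in DIA, and 13289, 16945, 19918 and 22653 in AAT. The AAT arrays were the highest and DIA 1 was the lowest of all. Sdha gave a relative change of 2.27 (SE 0.43, limma adjusted p = 0.11), and 1.05 after quantile normalization. It was 1.30 without DIA 1 and 3.34 without DIA 2, with limma adjusted p-values of 0.75 and 0.019. The next brightest probe set of Sdha gave 0.92, and 2 dim ones gave −1.58 and −2.01.

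Cox5a, the complex IV subunit that binds thyroid hormone T2, had 9583, 5858, 8116 and 12542 in NOR, 3381 and 13626 in DIA, and 49774, 16243, 19400 and 29667 in AAT. DIA 1 was the lowest array and DIA 2 lay above NOR, so the SD of DIA was 1.42, the largest of any member in that group. Its relative change in AAT vs DIA was 2.53 (SE 0.54, limma adjusted p = 0.13) and 1.26 after quantile normalization. It was 1.24 without DIA 1 and 3.91 without DIA 2, with limma adjusted p-values of 0.79 and 0.022. Ndufb9, whose signals are given above, was at 1.23 and 3.11 in the same fits (limma adjusted p = 0.77 and 0.041). The values of DIA rest on 2 arrays that differ: without DIA 1 the median change of members in AAT vs DIA was 0.71, and without DIA 2 it was 2.25.

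DIA vs NOR in PLNs gave a median relative change of 0.26, with 21 of 35 members higher, and 0.08 after quantile normalization with 19 higher. Its sign rested on single arrays: it was 0.73 without DIA 1 and −0.35 without DIA 2. Against the median of their signal bin, a setting chosen after seeing the data, 21 of 35 members were higher, with a median of 0.17. By the thresholds 1 member was higher and none lower, where 2.66% of probe sets were higher and 7.15% lower. The count was 7 without DIA 2, 3 without NOR 2, and 2 without NOR 1, NOR 4 or AAT 1. After quantile normalization 1 was higher (5.94%) and 2 were lower (8.38%). No member passed an adjusted p of 0.05, which 0.0555% of all probe sets did by limma. The unadjusted p was under 0.05 for 3 members and for 4489 of all 45037 probe sets.

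Ndufs3, a core subunit of the arm of complex I that reaches into the matrix, was the member higher on both scales. Its signals were 777, 1671, 1193 and 810 in NOR, 3591 and 1975 in DIA, and 1013, 2959, 1476 and 1103 in AAT. Both DIA arrays lay above NOR, and AAT 2 lay between the DIA arrays. The relative change in DIA vs NOR was 1.44 (SE 0.51, limma adjusted p = 0.37). Cycs, the carrier between complexes III and IV, had 3959, 4582, 5209 and 3212 in NOR, 1521 and 2934 in DIA, and 5290, 7481, 2526 and 5564 in AAT. DIA lay below NOR, and AAT 3 fell within the DIA range. For Cycs this gave −0.87 (SE 0.46, limma adjusted p = 0.49), and −1.19 after quantile normalization. The value was −0.20 without DIA 1 and −1.68 without DIA 2. Ndufa2, a thioredoxin-like subunit of complex I, had 7275, 8314, 6721 and 6870 in NOR and 9700 and 20304 in DIA. Its DIA arrays were both above NOR but differed from each other by over 2-fold, and the change was 1.06 (SE 0.41, limma adjusted p = 0.45), or 1.79 without DIA 1 and 0.20 without DIA 2.

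Marker genes of other cells also differed between these groups. The summed signal of 6 white adipocyte markers lay between 3447 and 7049 in NOR, was 4290 and 2496 in DIA, and lay between 8476 and 36989 in AAT, where most of it was Fabp4, a fatty acid carrier of adipocytes and macrophages, at 6976 to 26983, while Adipoq lay between 46 and 1570. All 6 were above the median probe set in AAT vs NOR, and 2 of 6, Fabp4 (3.18) and Lpl (3.25), rose at limma adjusted p-values of 0.0067 and 0.029. The 6 macrophage markers summed to between 33076 and 52437 in NOR, 49828 and 65938 in DIA, and 55285 and 97372 in AAT, and 5 of 6 were above the median probe set in AAT vs NOR. The 7 lymphocyte markers summed to between 45840 and 49557 in NOR, 31377 and 62597 in DIA, and 45929 and 72233 in AAT. The 7 acinar markers summed to between 484 and 1857 in NOR, were at 14799 in DIA 1 and 1310 in DIA 2, and reached 242259 in AAT 3 against 557 to 2457 in the other AAT arrays. Without AAT 3 the median change of members was 1.26 against DIA and 1.51 against NOR. The part of these cells in the members' values was not tested. The Gapdh 3' to 5' ratio was 5.55 to 8.01 in NOR, 10.78 and 10.02 in DIA and 7.43, 20.6, 8.30 and 24.97 in AAT, and its part was not tested either. The beta-actin ratio showed no such rise, at 0.94 to 2.31 in NOR, 0.88 and 1.10 in DIA and 1.23 to 2.01 in AAT.

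Other mitochondrial gene lists were set beside the members in PLNs. They were not compared within bins of signal, and the part of signal level in their values was not tested. In AAT vs NOR the median change as measured was −0.72 over all probe sets and 0.38 in the brightest bin. Of 23 further respiratory chain subunits, 22 were above the median probe set in AAT vs NOR, and the median change was 1.53. At an adjusted p under 0.05, which 1.1% of all probe sets passed upward, 5 rose. Ndufc1 (2.74, limma adjusted p = 0.011) and Ndufc2 (2.53, limma adjusted p = 0.017), membrane arm subunits of complex I, and Cox6b1 (2.72, limma adjusted p = 0.026) of complex IV were among them. Of 15 ATP synthase subunits 3 rose, with a median of 1.39, and Atp5me changed by 2.71 (limma adjusted p = 0.015). After quantile normalization these medians were 0.38 and −0.22, so the sign for ATP synthase turned. Of 11 citric acid cycle enzymes 1 rose, Mdh2 (1.97, limma adjusted p = 0.046), and the median was 1.10, or 0.11 after quantile normalization. After that normalization no gene of these 3 lists had an adjusted p under 0.05 by limma, while 6, 3 and 0 had an unadjusted p under 0.05. Of all 45037 probe sets 7410 had such an unadjusted p. The 4 tissue-restricted isoforms of complex IV had a median of −0.05, or 0.02 after quantile normalization. Of these isoforms 2 passed the thresholds downward as deposited, where 20% of all probe sets did, and none after quantile normalization. No isoform had an adjusted p under 0.05 on either scale.

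Of 10 regulators of mitochondrial biogenesis none rose. Ppargc1b, a transcriptional coactivator, Esrra, the receptor ERR alpha, and Tfb2m, a mitochondrial transcription factor, passed the thresholds downward in AAT vs NOR, with relative changes of −0.71, −0.53 and −0.65 and limma adjusted p-values of 0.091, 0.092 and 0.092. These 3 of 10 stand beside the 20% of all probe sets that were lower, and after quantile normalization none of the 10 passed the thresholds. The median of these regulators was 0.35, and −0.13 after quantile normalization. Of 15 assembly factors 1 passed the thresholds upward and 2 downward, against 3.36% and 20% of all probe sets. None of the 15 had an adjusted p under 0.05, and the median was 0.86. After quantile normalization 1 assembly factor passed upward and none downward, against 7.17% and 7.66%, with a median of 0.24.

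In fat, all 35 members lay in the brightest of the 10 bins of mean signal. The comparison of DIA with NOR gave no common direction, with a median relative change of 0.08, 20 of 35 members higher and a range of −1.03 to 1.53. After quantile normalization the median was 0.09, and it was −0.09 without DIA 2. Against the median of their signal bin, a setting chosen after seeing the data, 18 of 35 members were higher, with a median of 0.01. No probe set at all, and so no member, had an adjusted p under 0.05 by limma in any of the 4 comparisons in fat (0.0% of all probe sets). In DIA vs NOR, 6 members and 4036 of all 45037 probe sets had an unadjusted p under 0.05. By the thresholds, 1 member was higher and 2 were lower, where 3.79% and 3.88% of probe sets were.

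The 2 pairs of arrays separated for many members without passing the thresholds. The DIA arrays lay wholly above NOR for 13 members and wholly below for 12, where this held for 18% and 23.2% of all probe sets. By complex, 12 of 18 members of complex I were above the median probe set and all 4 of complex II were below it, with medians of 0.48 and −0.28. Complexes III and IV had medians of 0.28 and 0.10.

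Ndufa5 was the member past the thresholds upward. Its signals were 4338 and 4804 in NOR, 12322 and 12100 in DIA, 7139 and 3050 in AAT, and 6210, 3666 and 4213 in PM. The 2 DIA arrays were above all 7 others. The relative change was 1.53 (SE 0.41, limma adjusted p = 0.42) in DIA vs NOR, −1.34 (SE 0.41, limma adjusted p = 1.00) in AAT vs DIA, and PM vs DIA gave −1.56 (SE 0.37, limma adjusted p = 0.36). These 3 comparisons share the DIA arrays. The value for AAT vs DIA was −2.16 without AAT 1 and −0.62 without AAT 2. The other probe set of Ndufa5 gave 0.39 in DIA vs NOR.

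Ndufs4 and Cox8a were the members past the thresholds downward in DIA vs NOR. Ndufs4 had signals of 2082 and 1744 in NOR, 701 and 1068 in DIA, 992 and 1673 in AAT, and 1686, 1923 and 1565 in PM. The DIA arrays were below NOR and PM, and AAT 1 lay within the DIA range. Relative to the median probe set this was −1.03 (SE 0.35, limma adjusted p = 0.43) in DIA vs NOR and 0.84 (SE 0.32, limma adjusted p = 0.41) in PM vs DIA. Without DIA 1 these were −0.69 and 0.52, and without DIA 2 −1.42 and 1.23. A dimmer probe set of Ndufs4 gave 0.44 in DIA vs NOR, so its probe sets disagreed in sign.

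Cox8a, a small membrane subunit of complex IV, had 9091 and 10382 in NOR, 3742 and 5672 in DIA, 4643 and 7947 in AAT, and 8336, 7333 and 6749 in PM. NOR was the highest group, PM lay between NOR and DIA, and AAT overlapped DIA. The relative change in DIA vs NOR was −0.97 (SE 0.35, limma adjusted p = 0.44), and the other bright probe set gave −0.66. Without DIA 1 it was −0.63 and without DIA 2 −1.36. Ndufa8, an accessory subunit of complex I imported through the oxidative folding route, had 3871 and 5823 in NOR, 2282 and 2826 in DIA, 3870 and 3229 in AAT, and 4632, 4250 and 4425 in PM. DIA was below the other 3 groups, and the relative change in PM vs DIA was 0.66 (SE 0.28, limma adjusted p = 0.43).

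**Figure D3:**
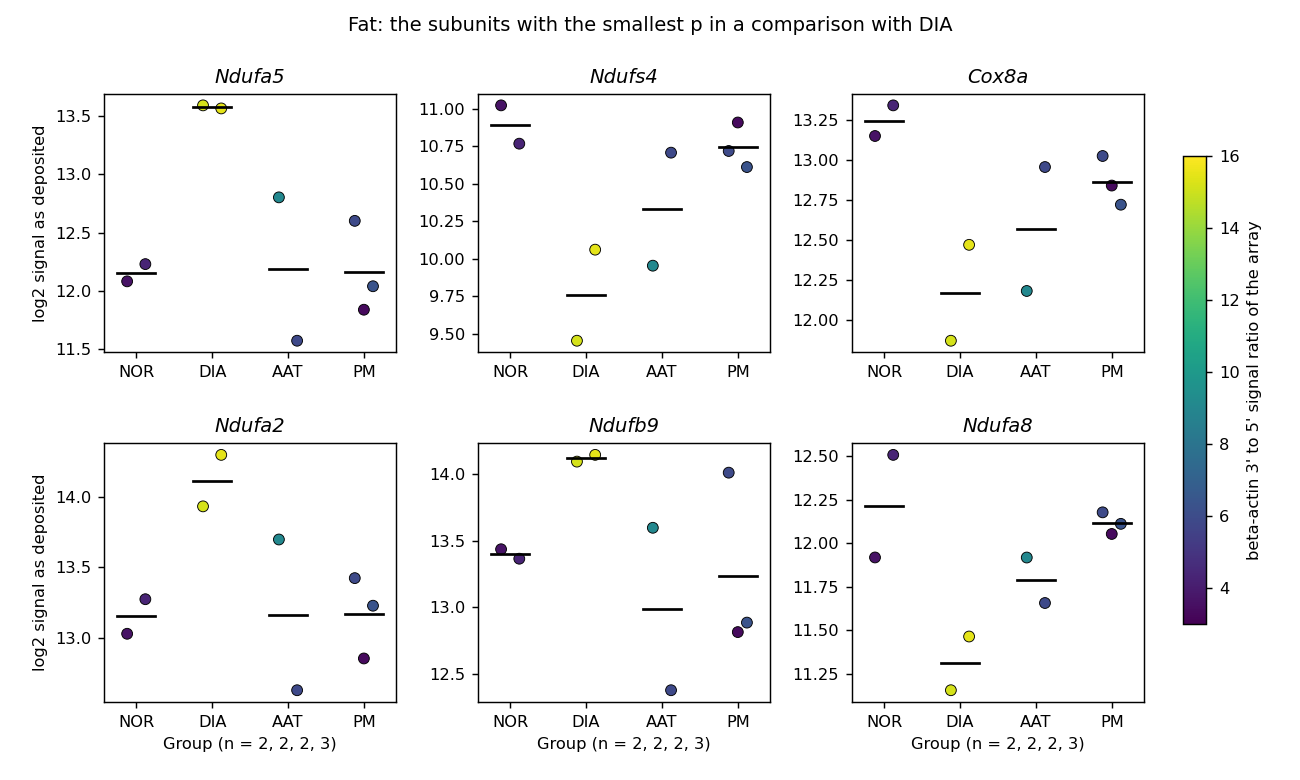
Log2 signal as deposited (vertical axis, its range set per gene) of the 6 subunits with the smallest p in a comparison with DIA, in each fat array of NOR, DIA, AAT (n = 2 each) and PM (n = 3). Points are coloured by the beta-actin 3' to 5' ratio of the array and black bars are group means. The 2 DIA arrays hold the highest ratios, 15.2 and 15.5, and lie at the top for Ndufa5, Ndufa2 and Ndufb9 and at or near the bottom for Ndufs4, Cox8a and Ndufa8.

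By rule, the member with the highest mean signal of each complex in fat is also given. Ndufa1, a membrane arm subunit of complex I, had 12669 and 17039 in NOR, 16055 and 21668 in DIA, 15714 and 9791 in AAT, and 16623, 8321 and 13221 in PM. Its 4 groups overlapped. Sdhb, the iron-sulfur subunit of complex II, had 8353 and 6475 in NOR, 5323 and 6248 in DIA, 4742 and 5672 in AAT, and 8488, 8465 and 6122 in PM. Both DIA arrays lay below NOR, and AAT overlapped DIA.

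Uqcrb had 50406 and 45849 in NOR, 35110 and 39888 in DIA, 34800 and 42852 in AAT, and 51122, 42702 and 35646 in PM. The NOR arrays were above DIA and AAT. Cycs had 30309 and 22846 in NOR, 19287 and 23773 in DIA, 15802 and 20603 in AAT, and 28452, 31674 and 15888 in PM. Cox7a2, the widely expressed isoform of a small complex IV subunit, had 22918 and 25140 in NOR, 20251 and 25122 in DIA, 24214 and 16844 in AAT, and 30460, 17818 and 19892 in PM. For these last 2, NOR and DIA overlapped.

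AAT vs DIA in fat had a median relative change of −0.20, with 14 of 35 members higher, and −0.33 after quantile normalization. The median was 0.03 without DIA 2, −0.58 without AAT 1 and −0.04 without AAT 2. The AAT arrays lay wholly below DIA for 15 members and wholly above for 2, as 7958 and 6732 of all 45037 probe sets did. After quantile normalization this held for 18 and 2 members, and for 7561 and 8059 probe sets. Against the median of their signal bin, a setting chosen after seeing the data, 25 of 35 members were lower, with a median of −0.32. None was higher and 2 were lower by the thresholds, against 2.03% and 1.82% of all probe sets. The count was 4 without AAT 1, 0 without AAT 2, and 1 without NOR 1, NOR 2 or DIA 2. Beside Ndufa5 this was Ndufb9, with signals of 11073 and 10544 in NOR, 17446 and 18066 in DIA, 12378 and 5330 in AAT, and 16474, 7207 and 7570 in PM. The DIA arrays were the highest, and the AAT arrays differed by over 2-fold. The relative change was −1.08 (SE 0.48, limma adjusted p = 1.00), with −1.90 without AAT 1 and −0.37 without AAT 2. Ndufa2, with 8358 and 9907 in NOR, 15640 and 20148 in DIA, 13288 and 6332 in AAT and 10989, 7403 and 9595 in PM, was highest in DIA, and the relative change was −0.90 (SE 0.40, limma adjusted p = 1.00). It was −1.65 without AAT 1 and −0.26 without AAT 2.

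PM vs DIA had a median relative change of −0.14, with 15 of 35 higher, and −0.09 after quantile normalization. It was 0.06 without DIA 2 and −0.46 without PM 1. Against the median of their signal bin, a setting chosen after seeing the data, 17 of 35 members were higher, with a median of −0.004. No member was higher and 1 was lower by the thresholds, against 4.6% and 3.09% of all probe sets, and the count was 4 without PM 1 and 2 without DIA 1, DIA 2 or PM 3. PM vs AAT had the narrowest range, −0.25 to 0.38, with a median of 0.08 and 23 of 35 members higher. None passed the thresholds in either direction, where 3.05% and 1.83% of probe sets did. After quantile normalization 32 of 35 were higher in PM and the median was 0.28.

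RNA quality moved with the DIA group in fat. When the beta-actin ratio of each array entered the fit, the median was −0.68 for DIA against NOR, 0.21 for AAT against DIA and 0.49 for PM against DIA, each opposite in sign to the value without it. In this order the median SE over all probe sets was 1.74, 1.11 and 1.46 with the ratio. It was 0.78, 0.78 and 0.71 without the ratio. With the ratio, Ndufa5 was at −0.89 in DIA vs NOR (limma adjusted p = 0.91). Both DIA arrays have ratios outside the range of the others, and the ratio and diabetes cannot be told apart in fat. Macrophage markers also differed: the summed signal of 6 genes was 6162 and 6039 in NOR, 11799 and 24055 in DIA, 12860 and 8199 in AAT and 8505 to 9828 in PM. The 4 erythroid markers summed to 3624 and 9645 in NOR and to 1538 and 1726 in DIA, and the 7 lymphocyte markers to 1234 and 834 in NOR and to 1260 and 2843 in DIA. The part of these cells was not tested. The 4 brown adipocyte markers summed to between 674 and 1817 in fat and the 6 skeletal muscle markers to between 586 and 2429, and the 6 white adipocyte markers to between 195129 and 478257.

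Of 15 ATP synthase subunits, 4 were lower by the thresholds in DIA vs NOR in fat and none was higher, with a median of −0.10, where 3.88% and 3.79% of all probe sets were. After quantile normalization 3 were lower and the median was −0.23. Atp5f1c (−1.12), of the central stalk, and Atp5mc2 (−1.06), of the membrane ring, had the smallest p-values, and limma adjusted p-values of 0.43 and 0.44. Their changes in PM vs DIA were 0.98 and 1.04, in a comparison that shares the DIA arrays. Of 23 further respiratory chain subunits 1 was higher and 1 lower, with a median of 0.13. The muscle and brown fat isoform Cox7a1 lay between 16 and 311. In PM vs AAT the 4 tissue-restricted isoforms of complex IV were all above the median probe set, with a median of 1.02, and 0.95 after quantile normalization. ATP synthase had 9 of 15 above it, with a median of 0.04, and 15 of 15 with 0.24 after quantile normalization. Over all probe sets in PM vs AAT, the median change as measured was 0.55 in the dimmest bin of signal and −0.03 in the brightest. The part of signal level in these list medians was not tested.

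**Figure D4:**
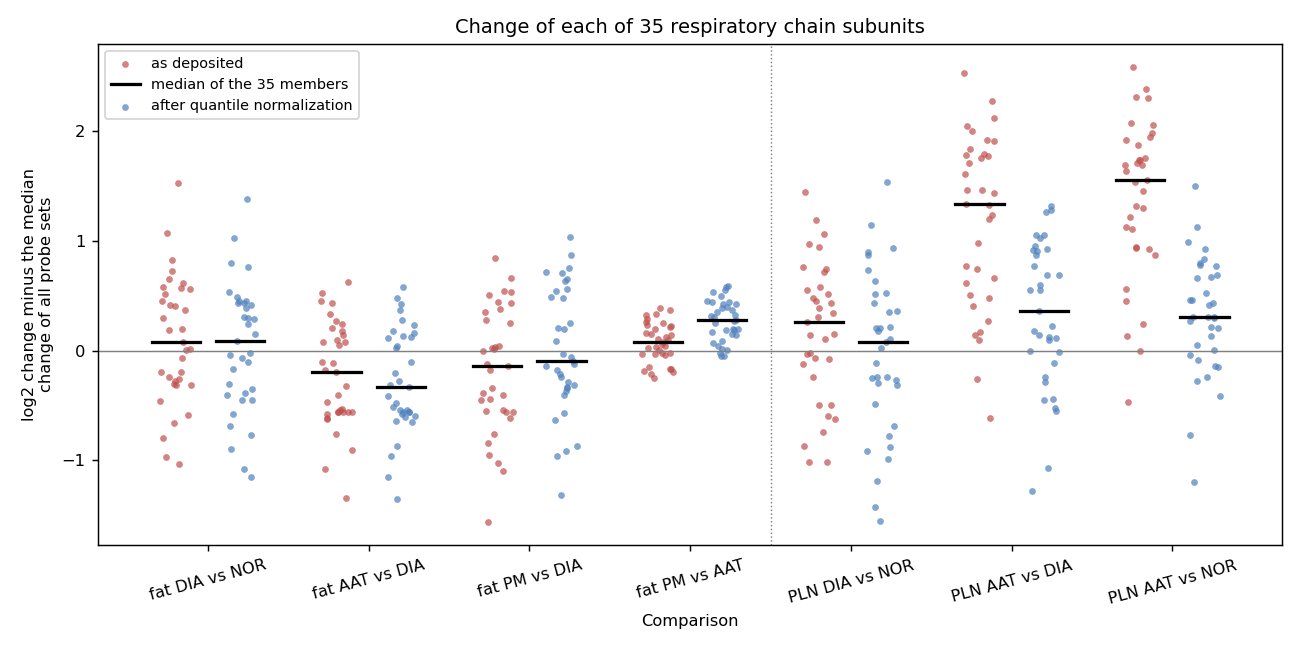
Log2 change of each of the 35 members minus the median change of all probe sets (vertical axis) in 4 comparisons of fat and 3 of PLNs (horizontal axis). Red points are values as deposited, blue points are after quantile normalization, and black bars are medians over members. In PLNs the medians are 1.34 for AAT against DIA and 1.55 for AAT against NOR as deposited, 0.36 and 0.31 after quantile normalization, and the fat medians lie between −0.33 and 0.28.

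Normal fat was also set against normal PLNs in 1 fit of all 19 arrays, with 1 probe set per gene in both tissues. Of 35 members 19 were higher in fat and 1 was lower at an adjusted p under 0.05, where 10.3% of all probe sets were higher and 11.9% lower. After quantile normalization 21 were higher (14.5%) and 2 were lower (15.5%), and the median relative change was 1.15 as deposited and 1.12 after it. The sources used here do not say whether the tissues were processed together.

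The largest differences were those of Cox4i1 (3.35, SE 0.69, limma adjusted p = 0.0011), Cycs (3.28, SE 0.45) and Cox8a (3.15, SE 0.42). Not all subunits were higher in fat. Ndufa5 was lower in fat, with a change of −1.77 (SE 0.40, limma adjusted p = 0.0035), and Sdha gave −0.96 (SE 0.37, limma adjusted p = 0.077), or −1.01 after quantile normalization with a limma adjusted p of 0.025. Ndufb5, Cox6c and Ndufs7 differed by 0.09, 0.12 and 0.24 with SE of 0.36, 0.38 and 0.43.

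The same fit gave the difference of each effect between fat and PLNs, an interaction term. For AAT vs DIA no member had an adjusted p under 0.05 by limma (0.0% of all probe sets), the smallest was 0.31, and 15 had an unadjusted p under 0.05. For DIA vs NOR no member passed either (0.00444% of all probe sets), the smallest adjusted p was 0.44, and 1 member had an unadjusted p under 0.05. For these terms the share of all probe sets under that unadjusted p was not counted. The median difference of the AAT effect, fat minus PLNs, was −1.51 relative to all probe sets and −0.70 after quantile normalization.

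**Figure D5:**
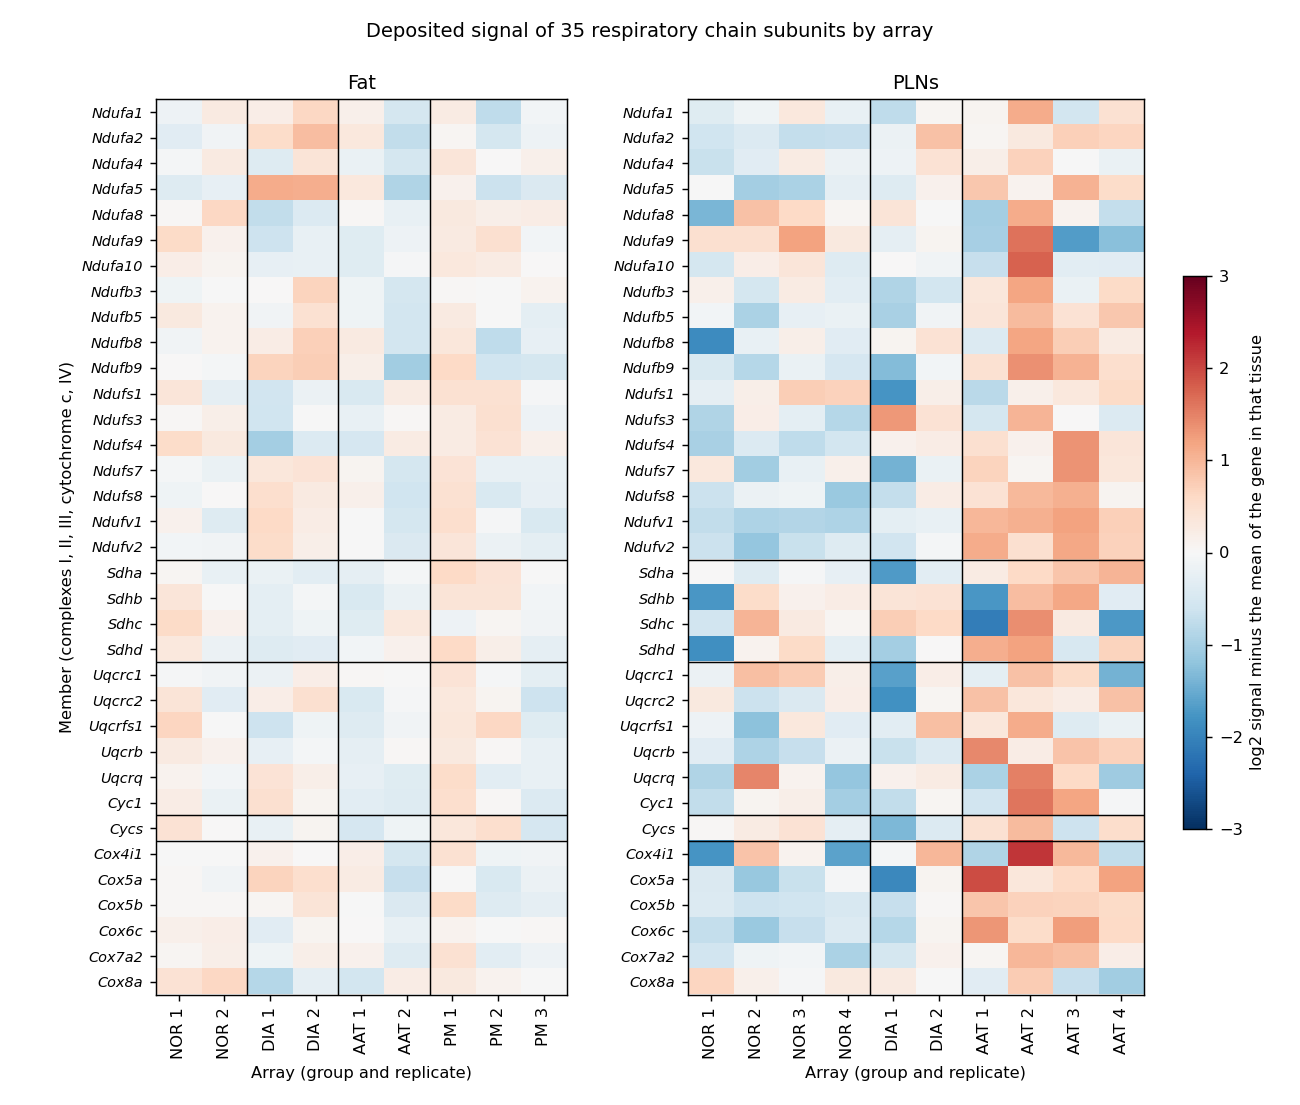
Deposited log2 signal of the 35 members (rows, in the order complex I, II, III, cytochrome c, IV) minus the mean of the gene in that tissue, in each array (columns, by group and replicate) of fat and PLNs. Red is above and blue below the gene's mean, on a scale from −3 to 3. In PLNs most squares of the 4 AAT columns are red, with Ndufa9, Sdhb, Sdhc and Cox8a among the exceptions, and in fat the DIA columns hold both red and blue rows.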

How the data were processed

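RNA of 9 fat and 10 PLN samples was hybridised to Affymetrix whole-genome mouse arrays. The deposited intensities are linear MAS5 signals that the authors scaled to a trimmed mean of 500.0 on every array, with a MAS5 version not given in the sources used here. The methods name RMA, which is not the scale of these values. After 64 control probe sets were left out, values under 1 (589 in all) were set to 1 and limma 3.58.1 (R 4.3.3) was run on log2 values, in 1 model per tissue with group means, eBayes with trend and Benjamini-Hochberg adjustment over 45037 probe sets. With 2 to 4 arrays a group, their number limits the precision. The scripts were tested on simulated data.

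Genes were named from the platform table, with symbols updated through Entrez IDs; 34945 probe sets named 1 gene, 932 several and 9160 none, and only the first were used for genes. Members had 78 probe sets, and 22 members had more than 1. Values per array are given for members with an adjusted p under 0.05, for the 3 smallest p-values in a comparison and for the highest mean signal of each complex in a tissue; Ndufa9, Ndufs4, Sdhc and Cox4i1 in PLNs were added after their values were seen. The members and the other gene lists were chosen with earlier results of these data known. Alternatives were quantile normalization, median centring, only the groups compared, the replicate number as a block, a filter at percentile 40, a floor at percentile 20, a pseudocount of 32, no trend, the mean of a gene's probe sets, the probe set by mean over all 19 arrays, the beta-actin ratio as a covariate and each array left out. The comparison within bins of signal was added after seeing the data. Promoters are those of RefSeq, build GRCm38.p6.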

Additional observations from a re-analysis of the deposited data

Results flagged for a closer look

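Among 70 groups of 4 arrays of the members in PLNs, 1 held an array far from the rest, where chance gives about 1 in 20 groups. Ndufa10, an accessory subunit of complex I, had signals of 1240, 6858, 1614 and 1582 in AAT, so AAT replicate 2 (6857.63) lay above the other 3 by 0.846 of the range of the group on the log2 scale.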

How the results depend on the processing

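The median change of members moved by less than the spread between arrays in 121 of 129 values under other settings. That spread was 0.38 in fat and 0.73 in PLNs, wider than the medians in fat and in PLN DIA vs NOR. Those medians could thus change sign within it. Part of the 129 values could not move. Median centring, only the groups compared, no trend, and leaving out an array of a group not compared leave a relative change as it was. The counts past the thresholds stayed within 1.5 times in 90 of 123, and those at an adjusted p under 0.05 in 111 of 123. Only PLN AAT vs NOR had members called in the main fit, 6 in all, so elsewhere an unchanged count was a count of none. In PLN AAT vs NOR the count did move, for example to 1 after quantile normalization. With the beta-actin ratio as covariate the fat medians were −0.68 (DIA vs NOR), 0.21 (AAT vs DIA) and 0.49 (PM vs DIA), Ndufa5 was at −0.89 (DIA vs NOR) and 0.39 (PM vs DIA), Ndufa2 at 0.33 and Ndufb9 at 0.24 (AAT vs DIA), and 0 members passed the thresholds in AAT vs DIA. After quantile normalization the PLN medians were 0.36 (AAT vs DIA) and 0.31 (AAT vs NOR), and against the median of the signal bin, a setting chosen after seeing the data, 0.46 and 0.53.

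With the mean of all probe sets of a gene, 0 members passed the thresholds in each of the 3 fat comparisons, 4 in PLN AAT vs DIA and 6 in AAT vs NOR, where 0 were called at an adjusted p under 0.05; Ndufs4 turned to 0.34 (fat DIA vs NOR) and −0.083 (fat PM vs DIA), and Sdha to −0.16 (PLN AAT vs DIA). The counts past the thresholds were 1 in fat AAT vs DIA under median centring, only the groups compared, a floor at percentile 20 or no trend. They were 2 in fat PM vs DIA, 3 in PLN DIA vs NOR, 4 in AAT vs DIA and 4 in AAT vs NOR after quantile normalization, 25 in PLN AAT vs NOR under median centring, and 0 in PLN DIA vs NOR without trend. At an adjusted p under 0.05, PLN AAT vs NOR gave 1 after quantile normalization, 12 under median centring and 0 without trend by limma. The causes were not tested.

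Same-numbered arrays did not deviate together in every pair (r of −0.04 to 0.28 in PLNs and −0.26 to 0.29 in fat). Where both groups have 2 arrays, as NOR, DIA and AAT in fat, the pairs give the same r by construction. Values for arrays with different numbers are not given here, so these r have no baseline. In PLNs the pairs of arrays 1 and of arrays 2 had r of 0.17 to 0.28, and those of arrays 3 and 4 had −0.04 and 0.01. The labels do not say that the numbers are pairs, so the main fit did not use them, and whether they are pairs was not settled. With the replicate block, 2 members passed the thresholds in fat PM vs DIA, 5 in PLN DIA vs NOR, and 10 were called in PLN AAT vs NOR. Over all probe sets in PLN AAT vs NOR, the block took the median SE from 0.78 to 0.73. Probe sets with an adjusted p under 0.05 by limma went from 496 to 883 upward and from 1190 to 3923 downward.

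With 1 array left out, the medians ranged from −0.09 to 0.28 (fat DIA vs NOR), −0.58 to 0.03 (fat AAT vs DIA), −0.46 to 0.06 (fat PM vs DIA), −0.35 to 0.73 (PLN DIA vs NOR), 0.71 to 2.25 (PLN AAT vs DIA) and 1.33 to 1.66 (PLN AAT vs NOR). The counts past the thresholds ranged from 2 to 4, 0 to 4, 1 to 4, 1 to 7, 2 to 16 and 11 to 16 in the same order. At an adjusted p under 0.05 there were 0 in the fat comparisons and PLN DIA vs NOR, 0 to 4 in PLN AAT vs DIA, the 4 without DIA 2, and 1 to 9 in PLN AAT vs NOR. A group left with 1 array was assumed to vary like the others.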
